A study of Mus musculus with 14 samples.

Results

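In replicate 1 of H3WT cells in DMSO, 7687 autosomal peaks of H3K27me3 were narrower than 3 kb, and 235 of them (3.06%) were overlapped by at least 1 bp by a peak in each of the K27M DMSO libraries. The 235 regions were chosen by the called peaks of these 3 libraries, so their presence in them is a description and not a result. The H3WT library held 13358 peaks in all, of which 11053 were autosomal. Of the 235 regions, 194 lay within 5 kb of another peak of the same H3WT library and are called fragments, and 41 stood alone. All 235 were narrow in H3WT replicate 1 by the rule, and 131 of them lay under a peak narrower than 3 kb in K27M replicate 1. In H3WT replicate 2, which took no part in the choice, 229 of the 235 lay under a peak of at least 3 kb. Most of the 7687 narrow peaks also lay under a peak that wide there, so this was not particular to the regions. A single region, at the gene Edn1, lay under peaks narrower than 3 kb in all 4 DMSO libraries.

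H3K27me3 is the trimethyl mark that Polycomb repressive complex PRC2 places on lysine 27 of histone H3, and it covers silent developmental genes in broad domains. PRC2 is recruited at CpG-rich nucleation sites, where its subunit Suz12 is found, and the mark spreads from there. The complex PRC1, whose ubiquitin ligase is Ring1b, binds the mark and helps to keep genes silent. The K27M substitution of H3.3, found in childhood brainstem gliomas, puts methionine in place of that lysine and inhibits PRC2.

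The cells were labelled as PDGF neural stem cells of the mouse, and the series' design text calls them mouse DIPG cells (diffuse intrinsic pontine glioma). The groups were K27M DMSO and H3WT DMSO, expressing mutant and wild-type H3.3, and K27M EPZ and H3WT EPZ, the same cells under 3 µM EPZ6438, an inhibitor of the PRC2 enzyme Ezh2. Treatment with DMSO or EPZ6438 lasted 12 days. Each of these groups had 2 H3K27me3 libraries, and Suz12 and Ring1b had 1 DMSO library per genotype. How PDGF and H3.3 were introduced and whether each genotype is 1 clone are not given in the sources used here, and no label says that replicates came from separate cultures. Of 34 neural stem and glial progenitor genes, 2 and 3 had an H3K27me3 peak at a gene end in the K27M DMSO libraries and 2 and 5 in the H3WT DMSO libraries. Of 28 mesenchymal, endothelial and microglial marker genes, 1 and 2 had one in K27M and 3 and 5 in H3WT. Peak lists hold no expression, so the labelled cell type could not be checked further.

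The lists differed widely in size. K27M replicates 1 and 2 had 2153 and 9368 autosomal peaks covering 13.0 and 41.6 Mb, and H3WT replicates 1 and 2 had 11053 and 43446 covering 39.2 and 149.9 Mb. The read depth behind each library is unknown. K27M replicate 1 set the choice: every narrow H3WT replicate 1 peak that it overlapped was also overlapped in K27M replicate 2. A further 3240 narrow peaks were overlapped in K27M replicate 2 only, 0 in K27M replicate 1 only, and 4212 in neither K27M library.

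The promoters of 4 genes are shown as examples of those that lie wholly inside regions. Others, such as that of Atp7b, also lay wholly inside a region and are not shown. Edn1, which encodes the vasoconstrictor peptide endothelin 1, and Galnt16, which encodes a glycosyltransferase, lie at regions that stood alone. Nfatc2, a calcineurin-regulated transcription factor, and Satb1, a chromatin organiser known from thymocytes, lie at fragments. Each line gives the 250 bases before the most upstream start, from RefSeq on GRCm38.p6, 5′ to 3′ on the strand of the gene, with CG dinucleotides in capitals. They span chr13:42301226-42301475 (plus strand) for Edn1, chr12:80518221-80518470 (plus) for Galnt16, chr2:168601658-168601907 (minus) for Nfatc2 and chr17:51833291-51833540 (minus) for Satb1.
Edn1: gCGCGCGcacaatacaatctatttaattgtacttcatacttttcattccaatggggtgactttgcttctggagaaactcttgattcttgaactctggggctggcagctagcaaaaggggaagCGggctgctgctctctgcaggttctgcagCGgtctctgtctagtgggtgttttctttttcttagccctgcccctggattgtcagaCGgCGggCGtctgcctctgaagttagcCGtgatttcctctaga
Galnt16: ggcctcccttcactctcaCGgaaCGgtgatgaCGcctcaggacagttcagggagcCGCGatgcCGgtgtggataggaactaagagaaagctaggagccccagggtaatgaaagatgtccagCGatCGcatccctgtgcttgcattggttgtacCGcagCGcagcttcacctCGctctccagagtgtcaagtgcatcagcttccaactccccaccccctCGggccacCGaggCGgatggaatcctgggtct
Nfatc2: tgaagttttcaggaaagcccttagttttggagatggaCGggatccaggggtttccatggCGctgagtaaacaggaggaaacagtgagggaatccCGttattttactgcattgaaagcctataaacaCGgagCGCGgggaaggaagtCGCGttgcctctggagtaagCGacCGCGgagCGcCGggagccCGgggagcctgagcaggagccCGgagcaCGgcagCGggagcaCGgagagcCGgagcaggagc
Satb1: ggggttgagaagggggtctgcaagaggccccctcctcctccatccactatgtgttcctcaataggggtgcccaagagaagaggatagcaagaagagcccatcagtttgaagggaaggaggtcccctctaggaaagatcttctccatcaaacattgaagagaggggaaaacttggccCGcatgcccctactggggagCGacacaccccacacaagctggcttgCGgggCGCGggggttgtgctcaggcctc
The 250 bases of Edn1 held 9 CG, those of Galnt16 14, those of Nfatc2 19 and those of Satb1 5. At Edn1 and Satb1 a Suz12 peak was called in K27M and none in H3WT, while Ring1b peaks were called in both genotypes. At Nfatc2 Ring1b was called in both genotypes and Suz12 in neither, and at Galnt16 neither protein was called.

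The fragments were pieces of longer stretches of peaks. When H3WT replicate 1 peaks less than 5 kb apart were joined into loci, the 235 regions fell into 184 loci, 143 of them with fragments. In 108 of these the locus also held a peak of at least 3 kb, and these loci held 146 regions. The other 35 loci were made of narrow peaks only and held 48 regions. In 34 loci 2 or more regions lay together, 85 regions in all. The gap to the nearest H3WT replicate 1 peak was under 1 kb for 134 regions and under 0.5 kb for 95. Fragments made up 82.6% of the 235, 67.3% of the 3240 narrow peaks overlapped in K27M replicate 2 only and 59.2% of all narrow autosomal peaks. The nearest neighbour of a fragment was at least 3 kb wide for 97 of 194, or 50%, against 34.5% for the narrow fragments overlapped in K27M replicate 2 only.

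**Figure D1:**
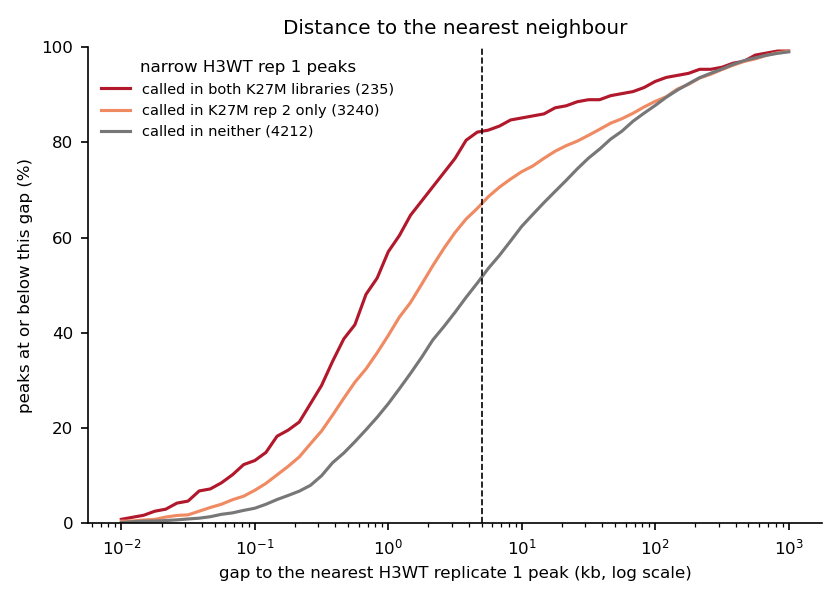
Cumulative percentage of narrow H3WT replicate 1 peaks (vertical axis) by the gap to the nearest peak of that library (kb, log scale), for the 235 regions, the 3240 peaks overlapped in K27M replicate 2 only and the 4212 overlapped in neither. The dashed line marks 5 kb, which 82.6% of the 235 regions lay within, against 59.2% of all narrow peaks.

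Across most of the gaps of the fragments, replicate 2 of either genotype called the mark without a break. In K27M the whole gap to the nearest H3WT replicate 1 neighbour lay under 1 peak for 89 of the 194 fragments (45.9%) in replicate 1 and for 176 (90.7%) in replicate 2. In H3WT replicate 2 it did for 177 fragments (91.2%), and the share there over all 4547 narrow fragments was 80.7%. For the 1034 wide peaks overlapped in both K27M libraries with a neighbour within 5 kb, the gap was covered for 9.86% in K27M replicate 1, 58.3% in K27M replicate 2 and 81.8% in H3WT replicate 2. For the fragments overlapped in K27M replicate 2 only, it was 52.1% in that library and 84.6% in H3WT replicate 2, and K27M replicate 1 had none by the rule. K27M replicate 1 covered the gap and H3WT replicate 2 did not for 2 fragments, and the opposite held for 90. The 2 covered in K27M lay in Shh, the hedgehog ligand gene, and in Pak1, which encodes a kinase of cell motility, and both K27M libraries covered their gaps. For 10 fragments the gap was covered in none of the 3 libraries.

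At Alx1, a homeobox gene of craniofacial development on chromosome 10, 6 of the 235 regions lay in 1 locus of 7 H3WT replicate 1 peaks. All 6 regions lay under a peak of 52.7 kb in K27M replicate 1 and of 70.2 kb in K27M replicate 2, and under one of 52.3 kb in H3WT replicate 2, while the widest of the 7 H3WT replicate 1 peaks was 23.1 kb. Among the DMSO libraries these 6 were separate peaks in H3WT replicate 1 alone. A Ring1b peak of 37.0 kb lay over 4 of these regions in K27M, and in H3WT the Ring1b peak of the locus was 8.12 kb wide and touched none of the 6.

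**Figure D2:**
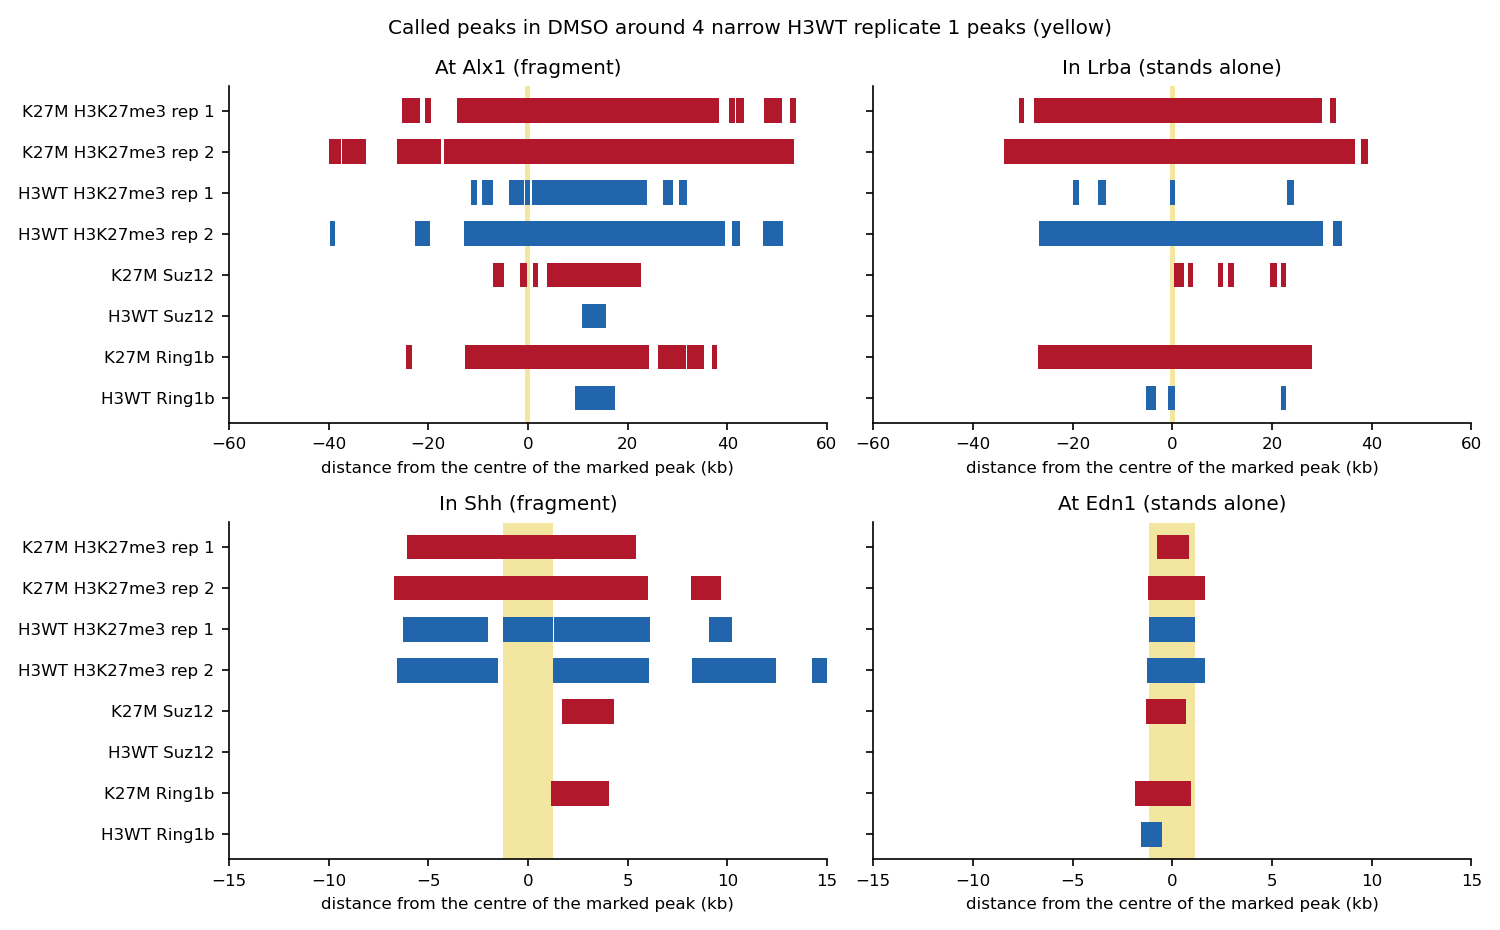
Called peaks of 8 DMSO libraries (rows, K27M in red, H3WT in blue) by distance in kb from the centre of 1 region (yellow) at Alx1, in Lrba, in Shh and at Edn1. At Alx1 and Lrba the single peaks of 52.7 and 57.8 kb in K27M replicate 1 stand over several separate peaks of H3WT replicate 1, the widest of them 23.1 kb at Alx1, whereas at Edn1 every peak is under 3 kb wide.

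Of the other loci with the most regions, those named here had the same layout, or one broken in K27M replicate 1 but not in K27M replicate 2. Of 9 loci with 3 regions each, 3 are named, those with most H3WT replicate 1 peaks and then first in genome order. Next to Lhx9, a LIM homeobox gene on chromosome 1, 4 regions lay under peaks of 36.7 kb in K27M replicate 1, 38.2 kb in K27M replicate 2 and 40.3 kb in H3WT replicate 2. At Tbr1, a T-box factor of cortical neurons on chromosome 2, 2 of 3 regions lay under a K27M replicate 1 peak of 31.8 kb and the third under one of 1.13 kb. All 3 lay under single peaks of 35.4 kb in K27M replicate 2 and 36.2 kb in H3WT replicate 2. At Slc1a2, the astrocyte glutamate transporter gene on chromosome 2, 4 regions lay under 3 separate K27M replicate 1 peaks of 1.61 to 3.01 kb. The same 4 lay under single peaks of 15.6 kb in K27M replicate 2 and 15.1 kb in H3WT replicate 2. Away from genes, 3 regions on chromosome 1, with Gm7135 as the nearest protein-coding gene at 75.6 to 80.7 kb, lay under K27M replicate 1 peaks of 1.22 to 2.08 kb. These 3 lay under single peaks of 9.883 kb in K27M replicate 2 and 9.765 kb in H3WT replicate 2. A further 3 on chromosome 2, between Hsd17b12 and Ttc17, lay under 1 peak of 25.3 kb in K27M replicate 1.

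The region in Shh was the exception among the 235 in H3WT replicate 2. It spans chr5:28462091-28464561, inside the gene. K27M replicates 1 and 2 had peaks of 11.5 and 12.7 kb over the whole of it. In H3WT replicate 1 its own peak was 2.47 kb wide and lay 56 bases from its neighbour. H3WT replicate 2 had no peak over it, and its nearest peaks, of 5.09 and 4.83 kb, lay to either side. The other 234 regions were overlapped in H3WT replicate 2 (99.6%), against 97% of all narrow and 97.9% of all autosomal peaks, so this overlap did not set them apart.

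Over the regions, the called peaks were wider in the replicates numbered 2. The widest overlapping peak had a median of 2.36 kb in K27M replicate 1 (1.00 to 118 kb) and 15.3 kb in K27M replicate 2 (2.44 to 186 kb). The regions themselves had a median of 2.05 kb in H3WT replicate 1, where the rule capped them, and the peak over them a median of 14.9 kb in H3WT replicate 2 (1.93 to 164.5 kb, 234 regions). In K27M replicate 1 the overlapping peak was wider than the region for 132 of 235 and at least 10 kb wide for 60. It joined 2 or more H3WT replicate 1 peaks for 92, against 183 in K27M replicate 2 and 182 in H3WT replicate 2. The H3WT replicate 2 share, 77.4%, compares with 49.9% of all narrow autosomal peaks. K27M replicate 1 covered a median of 84.5% of a region's length, the whole of 81 regions and under 10% of 6. The regions stand under 201 different peaks of K27M replicate 1 and 182 of H3WT replicate 2, so they are not independent of each other.

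**Figure D3:**
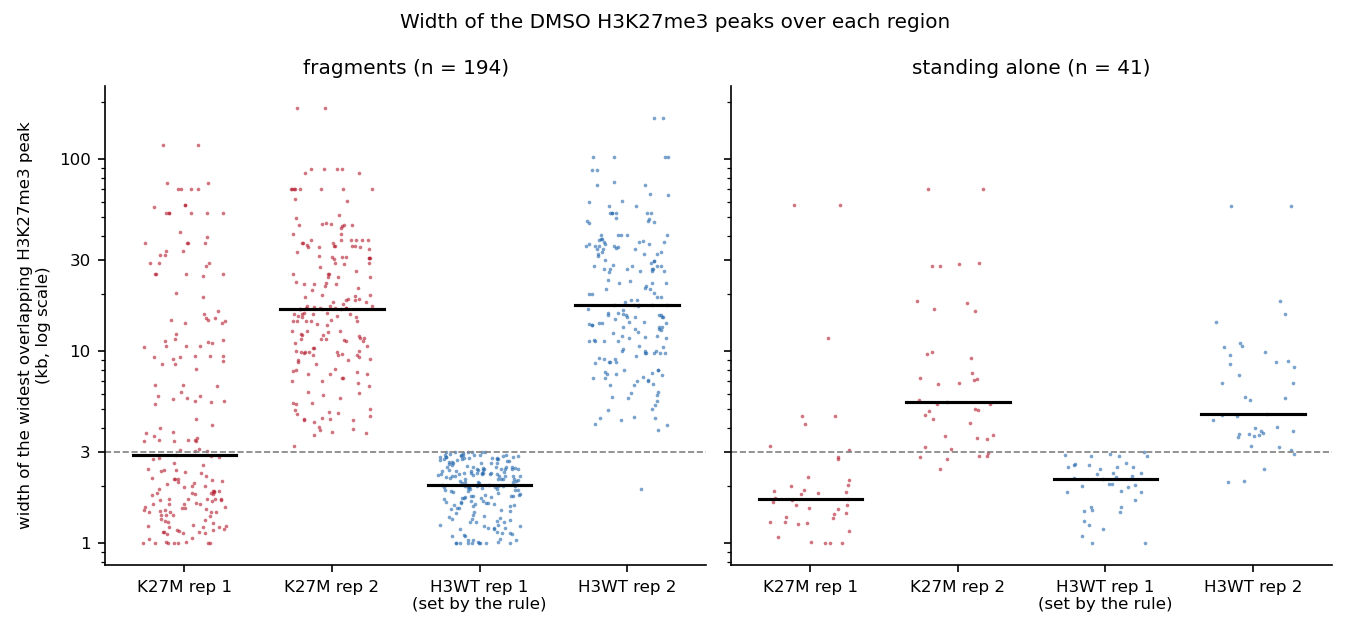
Width of the widest H3K27me3 peak overlapping each region in the 4 DMSO libraries (kb, log scale), for fragments (left) and regions standing alone (right), with 1 point per region and the median as a bar. Values of H3WT replicate 1 end at the dashed line of 3 kb by the rule, and the medians over all 235 regions are 2.36 and 15.3 kb in K27M replicates 1 and 2 and 14.9 kb in H3WT replicate 2.

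The 41 regions that stood alone were 6.33 to 2360 kb from the nearest other H3WT replicate 1 peak. Most of them kept a short peak in K27M replicate 1, with a median of 1.70 kb, and 33 were under 3 kb there. In K27M replicate 2 the median was 5.43 kb and 35 were at least 3 kb wide, and in H3WT replicate 2 the median was 4.69 kb and 37 were. In all, 40 of the 41 lay under a peak of at least 3 kb in 1 or more of the other DMSO libraries. The remaining one was the region at Edn1, chr13:42301217-42303526. Its peaks were 1.65 and 2.86 kb in K27M replicates 1 and 2 and 2.31 and 2.91 kb in H3WT replicates 1 and 2.

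Among the single regions at gene ends, 4 carried Suz12 in K27M only and Ring1b in both genotypes. They lay at Fst, which encodes follistatin, a secreted antagonist of activin, at Edn1, at Uchl1, a neuronal ubiquitin hydrolase gene, and at both Amigo2, a cell adhesion gene, and Pced1b. The region at Fst spans chr13:114456233-114458844 and ends 0.145 kb from the gene end. Its H3K27me3 peaks were 2.83 and 4.92 kb in K27M and 2.61 and 3.08 kb in H3WT. Suz12 had a peak of 1.20 kb in K27M and none in H3WT, and Ring1b one of 2.69 kb in K27M and one of 1.87 kb in H3WT. At Uchl1 (chr5:66674148-66676015) the H3K27me3 peaks were 1.70 and 7.13 kb in K27M and 1.87 and 6.84 kb in H3WT, and the Suz12 peak of K27M was 2.03 kb. At Amigo2 the Ring1b peak was 1.14 kb in K27M and 1.63 kb in H3WT, and it was the only one of the 4 with a shorter Ring1b peak in K27M.

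The other single regions named at gene ends differed in their Polycomb readouts. Of the 17 single regions at gene ends 12 are named, and the ranking put those with fewest overlapping unused libraries last. C2cd4b had Suz12 in K27M only (2.26 kb) and no Ring1b. Paqr9, of the progestin and adipoQ receptor family, had Ring1b in H3WT only (1.20 kb), and Shisa6, an AMPA receptor auxiliary subunit gene, had Suz12 in H3WT only (2.12 kb). None of the 4 Suz12 and Ring1b lists had a peak at Galnt16, Dnm3, a dynamin gene, Smpd3, a neutral sphingomyelinase gene, D930020B18Rik or the pair Necab2 and Osgin1. Their K27M replicate 1 peaks were 1.01 to 1.59 kb wide, all shorter than the H3WT replicate 1 peaks of 2.56 to 2.99 kb. In K27M replicate 2 the peaks were 2.44 to 4.98 kb wide, and only that at D930020B18Rik was shorter than its H3WT replicate 1 peak.

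A few single regions were edges or islands of domains that were wide elsewhere. Inside Lrba, a gene of vesicle trafficking on chromosome 3, 2 regions of 1.09 and 1.55 kb lay under 1 peak of 57.8 kb in K27M replicate 1 and of 70.5 kb in K27M replicate 2, and under one of 57.0 kb in H3WT replicate 2. A Ring1b peak of 55.0 kb covered both in K27M, while in H3WT a Ring1b peak of 1.48 kb touched 1 of them. Beside Irx3, an Iroquois homeobox gene, the peaks were 11.7 and 16.3 kb in K27M and 1.00 and 7.56 kb in H3WT. Inside Pdgfra, the PDGF receptor gene, they were 4.60 and 9.63 kb in K27M and 1.49 and 3.99 kb in H3WT, and Ring1b had a peak of 1.66 kb in K27M only. Lrba, Irx3 and Pdgfra were picked for mention after their values were seen.

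Suz12 and Ring1b peaks, whose lists the choice did not use, lay over the regions in K27M more often than in H3WT. The choice did require H3K27me3 in both K27M libraries and a short H3WT replicate 1 peak, so it was not neutral between the genotypes. Its part in the difference was not tested. Suz12 overlapped 35 of 235 in K27M (14.9%, exact 95% interval 10.6 to 20.1%) and 2 in H3WT (0.851%, 0.103 to 3.04%), with 1 region in both. Ring1b overlapped 73 in K27M (31.1%, 25.2 to 37.4%) and 24 in H3WT (10.2%, 6.65 to 14.8%), with 21 in both, 52 in K27M only and 3 in H3WT only. Of all autosomal H3WT replicate 1 peaks, Suz12 overlapped 6.7% in K27M and 3.66% in H3WT, and Ring1b 7.39% and 6.79%. Among all narrow ones the shares were 0.846% in K27M and 0.104% in H3WT for Suz12 and 1.69% and 1.33% for Ring1b. The intervals cover the counting of regions only and are too narrow where regions share a peak. With 1 library per genotype there is no replicate check and no test of the genotype difference.

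**Figure D4:**
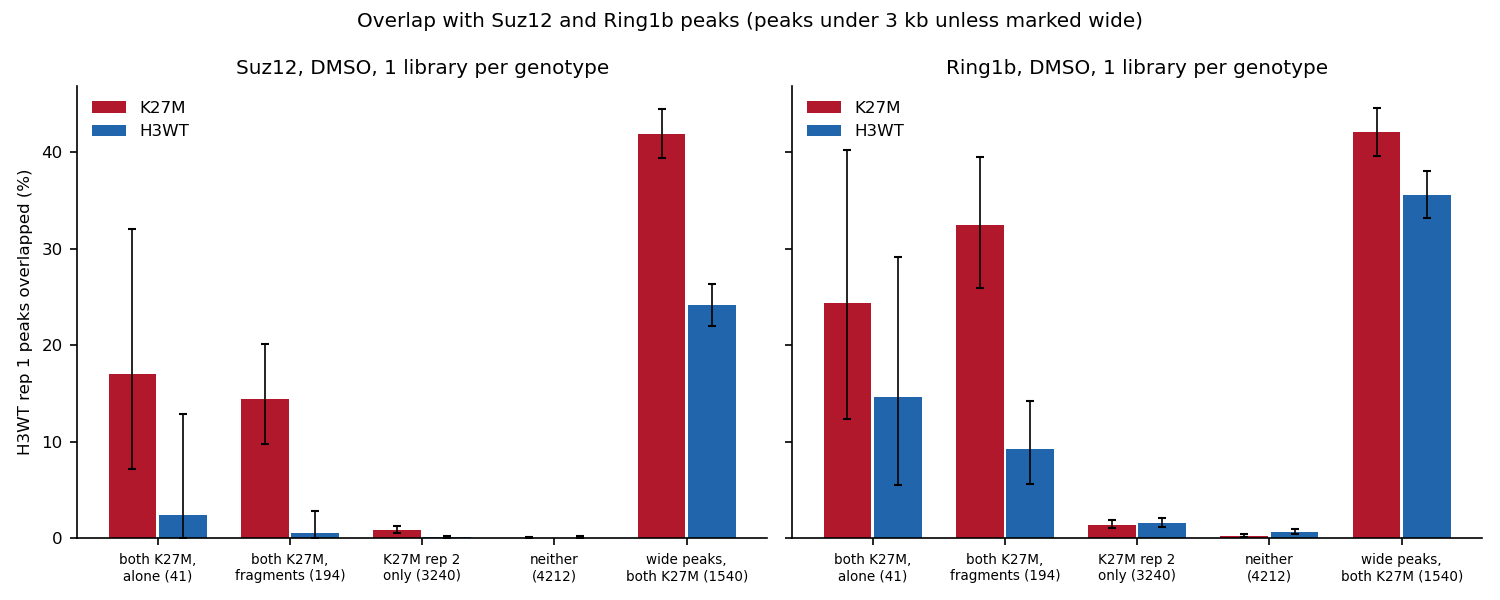
Percentage of H3WT replicate 1 peaks overlapped by a Suz12 (left) or Ring1b (right) peak in K27M (red) and H3WT (blue), for regions standing alone, fragments, narrow peaks overlapped in K27M replicate 2 only or in neither K27M library, and peaks of at least 3 kb overlapped in both. Bars are shares and lines exact 95% intervals, and over the 235 regions together Ring1b reached 31.1% in K27M and 10.2% in H3WT.

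Among the other narrow peaks Ring1b was not called more often in K27M than in H3WT. Of the 3240 overlapped in K27M replicate 2 only, Ring1b overlapped 46 in K27M and 51 in H3WT, and Suz12 29 in K27M and 3 in H3WT. For the 4212 overlapped in neither, Ring1b counts were 11 in K27M and 27 in H3WT. The 1540 wide peaks overlapped in both K27M libraries had Ring1b at 649 in K27M and 548 in H3WT, and Suz12 at 646 and 372. The Suz12 lists held 1252 peaks in K27M and 631 in H3WT, and the Ring1b lists 1808 in K27M and 1754 in H3WT, covering 7.41 and 5.12 Mb of autosomes. The part of these list sizes in the result was not tested. In each 0.5 kb class of region width from 1 to 3 kb, Ring1b in K27M lay over 29.1 to 33.9% of the regions and over 0.574 to 2.15% of the narrow peaks overlapped in K27M replicate 2 only.

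Ring1b over the regions came from wider peaks in K27M, which was not particular to them. Of all autosomal Ring1b peaks, 9.90% were at least 10 kb wide in K27M and 4.57% in H3WT. Median widths over the wide peaks overlapped in both K27M libraries were 4.464 kb in K27M and 3.065 kb in H3WT. Over the narrow peaks overlapped in K27M replicate 2 only they were 1.533 and 1.547 kb. For the regions, the overlapping Ring1b peak had a median width of 3.73 kb in K27M, up to 117 kb, and 26 of the 73 regions lay under one of at least 10 kb. In H3WT the median was 1.5 kb and the widest was 4.78 kb. Both of the widest lay over the region at Hoxa4, a gene of axial patterning on chromosome 6 (chr6:52192497-52195288). There H3K27me3 peaks were 118 and 186 kb in K27M replicates 1 and 2 and 164.5 kb in H3WT replicate 2, and Suz12 had a peak of 69.8 kb in K27M and none over the region in H3WT. Where the K27M replicate 1 H3K27me3 peak was at least 10 kb wide, 36 of 60 regions had Ring1b in K27M and 5 in H3WT. Where that peak was under 3 kb wide, Ring1b was called at 21 of 131 in K27M (16.0%) and 14 in H3WT (10.7%), and Suz12 at 21 in K27M and 2 in H3WT. At regions with a gene end, 27 of 53 had Ring1b in K27M and 15 in H3WT, and 19 had Suz12 in K27M and 2 in H3WT. The 73 regions with Ring1b in K27M lay under 57 different Ring1b peaks.

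Over genes, 53 of the 235 regions lay within 1 kb of a protein-coding gene end (22.6%), 69 inside a gene and 113 between genes. The share at gene ends was 11.4% among all narrow autosomal peaks. When K27M replicate 1 was left out of the rule, the share among the regions was 13.9%. For the regions that stood alone it was 17 of 41, against 16.6% of all narrow peaks that stood alone. A transcription start lay inside 17 of the 228 regions off chromosome 18, against 3.97% of narrow peaks. The table of genes gives no exons, so exonic and intronic positions were not separated.

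Developmental regulators lay at some of these gene ends. Of 54 genes, 10 were in any of the gene lists (18.5%), and these lists hold 2.94% of autosomal protein-coding genes. The share was 14.9% over the 2204 genes at all autosomal H3WT replicate 1 peaks, 27.4% at the wide peaks overlapped in both K27M libraries and 5.48% at all narrow peaks. They were Hoxa4, the homeobox genes Alx1, Barhl1 and Lhx2, the mesoderm and endoderm list members Foxd2, Tcf24, Zic1 and Zic4, the neuronal gene Tbr1 and the glial gene Slc1a2. All 10 were at fragments, and 0 of 19 genes at the single regions were in a list. At the 5.48% of all narrow peaks few of 19 genes would be listed, so this 0 does not set the single regions apart. The 235 regions thus held 1 of 39 Hox genes and 3 of 111 other homeobox and paired-box genes, against 37 and 89 for the wide peaks overlapped in both K27M libraries. The lists of neural stem and glial progenitor genes, cell cycle inhibitors, signalling by Fgf, hedgehog, Bmp, Wnt and TGF-beta, Polycomb and H3K27 enzymes, imprinted genes, germ cell genes, markers of other cell types and housekeeping genes had 0 at the ends covered. Among the 876 genes at all narrow peaks, the signalling list had 11 and each of these other lists 0 or 1. With 54 genes, the 0 counts therefore do not set the regions apart. At the ends of Zic1 and Zic4, zinc finger genes of the cerebellum, 2 regions lay under 1 peak of 70.2 kb in K27M replicate 1, 88.8 kb in K27M replicate 2 and 103 kb in H3WT replicate 2. Of these, 1 held the Zic1 start. Their locus held 3 regions, all under that K27M replicate 1 peak. Barhl1, a homeobox gene of cerebellum and inner ear, lay under 14.7, 17.0 and 17.4 kb in the same libraries, and neither Suz12 nor Ring1b was called on its region.

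Promoter windows of RefSeq, from 250 bases before to 50 after a start, lay wholly inside a region in 13 cases from 12 genes. They held 8 to 41 CG, with a median of 23, and 10 of 13 (76.9%) were CpG-rich, defined as at least 50% G and C with an observed to expected CpG ratio of at least 0.6. Of all 20085 autosomal windows off chromosome 18, 46.5% were CpG-rich, with a median of 14 CG. The median was 17 in the narrow peaks overlapped in K27M replicate 2 only, 12 in those overlapped in neither and 20 in the wide peaks overlapped in both. The richest was Hs6st3, a heparan sulfate sulfotransferase gene, with 41, and the poorest Satb1 with 8. Edn1, narrow in every DMSO library, had 11 CG in its window and was not CpG-rich.

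**Figure D5:**
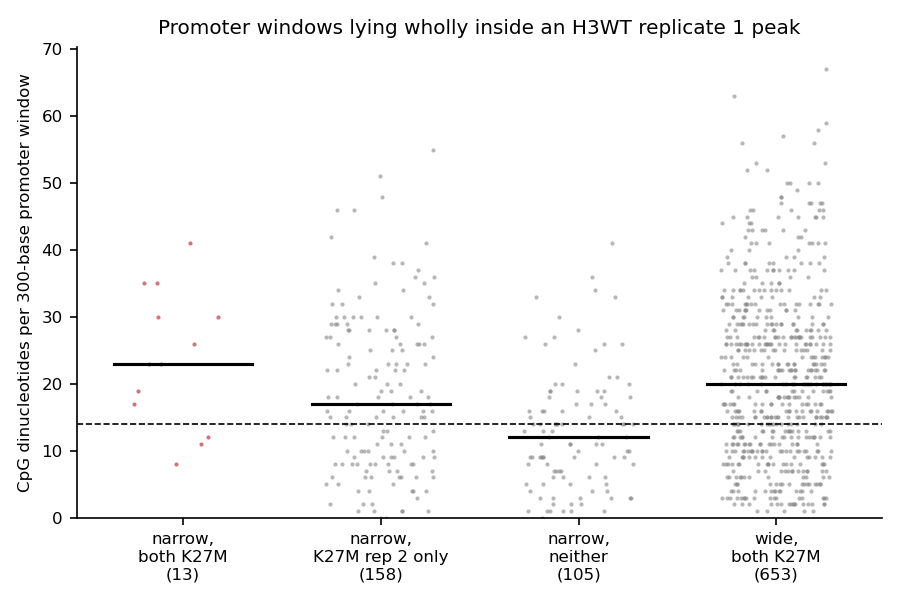
CG dinucleotides in each 300-base promoter window lying wholly inside an H3WT replicate 1 peak (vertical axis), by class of peak with the number of windows below, 1 point per window and the median as a bar. The dashed line is the median of 14 over all 20085 windows, and the 13 windows of the regions have a median of 23.

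Under EPZ6438 the regions were almost without called peaks. In K27M EPZ 2 and 3 of 235 were overlapped (0.851 and 1.28%), and in H3WT EPZ 2 and 2. The means were 1.06 ± 0.301% in K27M and 0.851 ± 0% in H3WT (SD, n = 2 libraries each). The difference was 0.213 percentage points (two-sided exact permutation test, p = 1, where 0.333 is the smallest that 2 against 2 allows). All but 1 of the libraries were tied at 2 regions, so every relabelling gave the same absolute difference. The test therefore could not tell the genotypes apart. Over all narrow autosomal peaks the shares were 0.026 and 0.065% in K27M EPZ and 0.026 and 0.039% in H3WT EPZ, and over all autosomal peaks 1.07 and 1.72% in K27M and 1.93 and 1.68% in H3WT. The EPZ lists held 201 to 340 peaks each. None of the 41 regions that stood alone was overlapped in any EPZ library.

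The regions called under EPZ6438 came from 2 places. At Gm21188 on chromosome 13, 2 adjacent regions, chr13:120031058-120032686 and chr13:120033015-120035165, were overlapped in all 4 EPZ libraries. The EPZ peaks there were 3.69 and 16.7 kb in K27M and 10.7 and 3.98 kb in H3WT, so the genotypes overlapped. In DMSO the peaks were 8.64 and 17.98 kb in K27M, and 18.4 kb in H3WT replicate 2. How reads matching several places were treated is not given in the sources used here. The other region, chr2:90415983-90418786, between genes and 11.0 kb from the end of Ptprj, a receptor phosphatase gene, was overlapped in K27M EPZ replicate 2 only, by a peak of 1.91 kb.

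Next to the width limit, the regions just inside were at Galnt16, 2.987 kb wide, and in Trim36 on chromosome 18, 2.991 kb wide. Just outside were peaks of 3.002 kb in Zic4 and 3.009 kb near Ercc6l2. Their K27M replicate 1 peaks were 1.53 kb at Galnt16, 3.07 kb in Trim36, 70.2 kb in Zic4 and 1.83 kb near Ercc6l2. By chromosome, the share of narrow peaks that were among the 235 ran between 0.985% on chromosome 16 and 6.73% on chromosome 8.

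The same rule applied to H3WT replicate 2 found 21 of 30070 narrow autosomal peaks (0.0698%), of which 6 overlapped one of the 235 regions and 3 stood alone. Which narrow peaks were retained in K27M thus depended on which H3WT library was taken.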

How the data were processed

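ChIP-seq peak lists of 12 libraries were used, and the 2 IgG libraries were not analysed here. Per the submitters' processing notes, Bowtie 1.1.2 and mm10 were used. The peak caller, its threshold and any control are not given in the sources used here. The authors deposited 1 list per library, so peaks were not pooled over replicates, and the deposited score column was 0 in all 100144 lines. The lists therefore hold positions and no heights, and the narrowest peak was 1001 bp. Depth is unknown, so more or wider peaks can come from more reads.

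Groups came from titles. Peaks touching in a library were merged (21), X was left out, and overlap meant at least 1 bp. Genes and promoters came from RefSeq on GRCm38.p6, whose chromosomes are those of mm10. A gene end was a window of 1 kb to either side, since the table gives no strand; 21631 protein-coding genes were used, and the promoter table has no chromosome 18. Intervals are Clopper-Pearson. The regions, gene lists and rule for named regions were chosen with earlier results of these data known. Named were up to 12 single regions at gene ends, ranked by the number of unused libraries overlapping and then by covered length, the 6 loci with most regions (ties by number of H3WT replicate 1 peaks, then genome order), those next to the width limit, those called under EPZ, the widest single ones, list genes, and the one without H3WT replicate 2. The rule was tested on simulated peaks, where 30 of 30 planted regions were found. Python 3.11.15, numpy 2.4.6, pandas 2.3.3, SciPy 1.17.1 and matplotlib 3.10.9 were used.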

Additional observations from a re-analysis of the deposited data

How the results depend on the processing

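Replicates numbered alike in the titles are not said to share a culture. With the replicate number as a replicate block, the K27M minus H3WT difference under EPZ was 0.213 points, 0 in replicate 1 and 0.426 points in replicate 2 (exact permutation p = 1, smallest possible 0.5). With 0 in replicate 1, every exchange of labels gave the same absolute difference, so this test could not decide either. Of 102 alternatives, 67 stayed within the limits set. The limit was a fixed factor for counts and the exact 95% interval of the main setting for shares. Direction was checked for the EPZ difference only, where a value of 0 counted as unchanged, and it was not reversed. Leaving out K27M replicate 2 changed no value, and leaving out K27M replicate 1 changed most. The number of regions was 235 to 3475 when either was left out, and that standing alone 41 to 1101. Suz12 shares were 1.84 to 14.9% in K27M and 0.144 to 0.851% in H3WT, and Ring1b shares 3.42 to 31.1% in K27M and 2.16 to 10.2% in H3WT. Leaving out an EPZ library moved that difference between 0 and 0.426 points. Widths under 2 kb gave 111 regions, 17 alone, with Ring1b at 6.31% in H3WT, and widths under 4 kb gave 399 and 105. Only peaks of at least 2 kb in the other libraries gave 132 and 13, with Suz12 at 8.33% in K27M and 0% in H3WT and Ring1b at 3.79% in H3WT. An overlap of at least 50% of the peak gave Suz12 at 10.1% in K27M and Ring1b at 24.0% in K27M and 3.85% in H3WT. With X, Ring1b was at 24.0% in K27M, and over single regions only at 24.4%. A gap of 2 kb left 71 alone. The share at gene ends, 22.6%, was 13.9% without K27M replicate 1, 14.4 and 33.1% for widths under 2 and 4 kb, 10.6% with the gene end inside the peak, 37.4% within 5 kb, 48.5% over the whole gene and 41.5% for single regions. From H3WT replicate 2, 21 regions, 3 alone, had Suz12 at 9.52% in K27M and 0% in H3WT and Ring1b at 42.9% in K27M; overlap with that library gives no value there. The causes were not tested, except that fewer or more regions follow from each rule itself. Unknown depth limits all counts.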

Other observations

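Fragments at gene ends outside the gene lists, picked for mention after their values were seen, fell into a few layouts. Smad6, an inhibitor of Bmp signalling, was the region with Suz12 in both genotypes, with peaks of 2.14 kb in K27M and 1.16 kb in H3WT, and it had Ring1b peaks of 2.98 kb in K27M and 2.18 kb in H3WT. Pard6b, a cell polarity gene, had a Suz12 peak of 7.64 kb and a Ring1b peak of 3.91 kb in K27M and neither in H3WT. Kcnq3, a potassium channel gene, and Cacna2d3, a calcium channel subunit gene, had Suz12 in K27M only, at 2.28 and 1.28 kb, and Ring1b in both genotypes. Irf8, a transcription factor of myeloid cells, and Prdm8, a Prdm family factor, had Suz12 in K27M only, at 1.46 and 1.98 kb, with Ring1b in neither genotype. Hes3, a basic helix-loop-helix repressor, had neither protein on its region, with a K27M replicate 1 peak of 1.62 kb under an H3WT replicate 2 peak of 13.1 kb. These readouts cover the region alone. Elsewhere in the same locus, H3WT replicate 1 peaks had Ring1b in both genotypes at Hes3 and in K27M at Prdm8. At Pard6b, other peaks of the locus had both proteins in H3WT.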
